A study of Mus musculus with 4 samples.

Results

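The regions described here are 5634 stretches of mouse chromatin, each made of exactly 3 abutting intervals in a deposited list of MED1 binding, and each centred within 1 kb of an end of a protein-coding gene. They were chosen by the number of called intervals and by position: intervals whose start equalled the previous end were joined into regions, regions of exactly 3 intervals were kept, and of these the ones whose midpoint lay within 1 kb of either end of a RefSeq protein-coding gene on chromosomes 1 to 19 and X. They were 25.0% of all 22565 regions, 41.4% of the 13623 three-interval regions, and 78.2% of the 7207 regions of any kind at gene ends. The number of intervals and the distance to a gene end are therefore the choice itself and not a finding. The rule asks for any gene end. The strand of the nearest gene was known for 4587 of the 5634 regions, and 95.3% of these 4587 lay nearest to a start of transcription.

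MED1 is a subunit of Mediator, the multi-protein complex that links transcription factors bound at enhancers and promoters to RNA polymerase II. A promoter is the stretch around a gene start where the polymerase assembles, and in mammals many promoters of broadly expressed genes are rich in CpG dinucleotides and lack a TATA box. In macrophages, Mediator is recruited to promoters and enhancers of lineage genes, and after lipopolysaccharide (LPS) to genes induced by Toll-like receptor 4 and by the interferon that the cells then release.

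Chromatin immunoprecipitation with sequencing was carried out on RAW 264.7, an established mouse macrophage-like line, with 2 libraries from untreated cells and 2 libraries from cells given LPS for 2 h. For the LPS, 10 ng/mL is stated in the labels of the samples but 100 ng/mL in their treatment protocol. All 4 libraries were double-fixed, with disuccinimidyl glutarate and then formaldehyde, and precipitated with an antibody to MED1. The deposited list has only positions, without a height or a library for any interval, so read depth is unknown, no region could be assigned to untreated or LPS-treated cells, and all values below are counts, widths and distances within that list without replicates or tests. How intervals came to abut is not given in the sources used here.

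To show what lies under these regions, the 150 bases before the start are printed for 8 genes, each the region centred nearest to a gene start in its gene list. Next come the 4 interferon-response genes with the lowest middle share among those at a start, a measure described below. Then come 2 genes of other tissues, picked for having no MED1 region in the window and a TATAAA upstream of the start. The last 6 were chosen after their values were seen. Sequences are from RefSeq on GRCm38.p6 (mm10), 5′ to 3′ on the gene's strand and ending 1 base before the start in the RefSeq promoter table. That start is the outermost annotated start, from which region distances are counted, for all printed genes except Ndufa3 and Isg20, where it lies 26 and 28 bases further into the gene. Capitals mark matches on either strand to any of 12 motifs: GGGCGG for the GC box, CCGGAAG for the ETS box, CCAAT for the site of NF-Y, GCATGCGC for the NRF1 core, AAGATGGC for the YY1 site, TGACGTCA for the cAMP response element, CACGTG for the E-box, TATAAA for the core of the TATA box, TGACTCA for the AP-1 site, GGGANTTTC for the NF-kB site, GAGGAAGT for the PU.1 site and AAANNGAAA for the interferon response element. A match is a run of letters, not a binding site.
Dusp2: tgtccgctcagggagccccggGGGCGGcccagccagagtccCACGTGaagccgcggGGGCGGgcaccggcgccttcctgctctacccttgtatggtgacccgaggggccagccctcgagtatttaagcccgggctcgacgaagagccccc
Stat2: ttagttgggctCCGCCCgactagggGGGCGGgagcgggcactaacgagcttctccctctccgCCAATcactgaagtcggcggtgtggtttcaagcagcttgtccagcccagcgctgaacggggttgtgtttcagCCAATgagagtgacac
Lyz1: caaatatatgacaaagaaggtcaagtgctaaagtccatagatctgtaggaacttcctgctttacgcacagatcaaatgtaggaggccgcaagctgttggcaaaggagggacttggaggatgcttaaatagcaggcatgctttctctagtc
Med28: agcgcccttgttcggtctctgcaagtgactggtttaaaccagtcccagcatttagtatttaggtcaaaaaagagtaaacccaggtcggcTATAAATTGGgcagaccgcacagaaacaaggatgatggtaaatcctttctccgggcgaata
Pdk3: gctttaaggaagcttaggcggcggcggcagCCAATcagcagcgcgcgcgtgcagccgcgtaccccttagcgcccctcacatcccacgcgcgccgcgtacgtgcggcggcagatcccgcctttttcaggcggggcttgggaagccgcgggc
Rpl28: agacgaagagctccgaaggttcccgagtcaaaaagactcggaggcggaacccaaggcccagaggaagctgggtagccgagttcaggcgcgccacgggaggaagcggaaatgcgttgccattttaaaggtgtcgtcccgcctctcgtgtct
Psma2: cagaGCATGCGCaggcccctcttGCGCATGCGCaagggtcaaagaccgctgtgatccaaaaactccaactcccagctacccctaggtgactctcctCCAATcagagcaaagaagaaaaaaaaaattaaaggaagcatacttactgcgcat
Ndufa3: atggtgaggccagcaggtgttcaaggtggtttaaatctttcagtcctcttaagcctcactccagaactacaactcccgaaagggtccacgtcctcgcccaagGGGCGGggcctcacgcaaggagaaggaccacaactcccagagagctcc
Isg15: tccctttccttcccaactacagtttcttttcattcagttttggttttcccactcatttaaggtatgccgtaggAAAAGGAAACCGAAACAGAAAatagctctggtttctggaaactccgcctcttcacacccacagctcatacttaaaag
Igtp: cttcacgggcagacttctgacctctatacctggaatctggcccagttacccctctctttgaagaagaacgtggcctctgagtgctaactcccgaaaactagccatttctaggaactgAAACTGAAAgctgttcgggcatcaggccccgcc
Gbp7: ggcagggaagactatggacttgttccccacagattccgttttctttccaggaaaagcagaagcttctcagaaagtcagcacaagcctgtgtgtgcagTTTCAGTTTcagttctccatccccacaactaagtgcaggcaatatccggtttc
Isg20: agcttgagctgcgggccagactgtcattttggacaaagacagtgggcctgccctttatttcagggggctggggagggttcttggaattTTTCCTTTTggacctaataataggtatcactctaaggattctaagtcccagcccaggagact
Cyp2e1: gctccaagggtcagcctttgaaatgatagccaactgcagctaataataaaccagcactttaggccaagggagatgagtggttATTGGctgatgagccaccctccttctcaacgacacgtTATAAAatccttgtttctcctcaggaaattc
Myh1: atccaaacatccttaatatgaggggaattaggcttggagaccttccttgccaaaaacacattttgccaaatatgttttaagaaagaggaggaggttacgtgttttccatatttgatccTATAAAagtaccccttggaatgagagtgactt

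The first 8 stretches lie at chr2:127336009-127336158 (plus strand) for Dusp2 (a MAP kinase phosphatase), chr10:128270348-128270497 (plus strand) for Stat2 (an interferon-signal transcription factor), chr10:117292869-117293018 (minus strand) for Lyz1 (lysozyme), chr5:45520079-45520228 (plus strand) for the Mediator subunit Med28, chrX:93832151-93832300 (minus strand) for Pdk3 (pyruvate dehydrogenase kinase), chr7:4792815-4792964 (plus strand) for ribosomal protein Rpl28, chr13:14613092-14613241 (plus strand) for the proteasome subunit Psma2 and chr7:3617223-3617372 (plus strand) for the complex I subunit Ndufa3. The interferon-response stretches lie at chr4:156200819-156200968 (minus strand) for Isg15, chr11:58199406-58199555 (plus strand) for Igtp, chr3:142530186-142530335 (plus strand) for Gbp7 and chr7:78913274-78913423 (plus strand) for Isg20. The stretches of the genes without a region lie at chr7:140763669-140763818 (plus strand) for Cyp2e1 and chr11:67199952-67200101 (plus strand) for Myh1. In these letters, the interferon element is found upstream of Isg15 in 3 overlapping copies from -77 to -57, and once each upstream of Igtp (-33 to -25), Gbp7 (-53 to -45) and Isg20 (-62 to -54, or -34 to -26 from its outermost start). The TATA box of Cyp2e1 (-31 to -26), a liver cytochrome P450, and of Myh1 (-32 to -27), a skeletal muscle myosin, lies where such boxes usually do. Of the printed genes with a region, only Med28 has TATAAA, and it lies further out, at -61 to -56. Psma2 holds 3 matches to the NRF1 core, of which those at -127 to -120 and -125 to -118 overlap on opposite strands. Dusp2 has 2 GC boxes and an E-box.

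The typical region was a wide middle interval flanked by a pair of narrow ones. Region width had a median of 2089 bp (quartiles 1552 and 2856 bp, range 353 to 15777 bp). The middle interval had a median width of 1600 bp (1184 to 2188 bp), the first 155 bp and the last 153 bp. The middle interval made up a median of 80.8% of the region (quartiles 69.7% and 88.9%, range 9.84% to 99.6%, mean 77.6% ± 15.1 SD, n = 5634 regions). It was under 50% of the width in 342 regions (6.07%, 95% Wilson interval 5.48% to 6.72%) and over 90% in 1205 (21.4%, 20.3% to 22.5%). All intervals of percentages given here are Wilson intervals and cover counting error only.

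The outer intervals were uneven within a region. The smaller had a median width of 75 bp and the larger 283 bp, so that the larger held a median of 76.0% of their sum. At least 1 outer interval was 50 bp or narrower in 37.5% of regions, and in 52 regions an outer interval was a single base pair. Neither genomic side was favoured, since the first interval was the wider in 49.5% of regions (48.2% to 50.8%).

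The same shape was seen away from gene ends, with a lower middle share. In the 4693 three-interval regions centred inside genes the median middle share was 76.1% (quartiles 60.0% and 87.0%) and the share of regions under 50% was 14.8% (13.8% to 15.9%). In the 3296 outside genes these values were 76.1% (61.1% to 87.3%) and 14.0% (12.8% to 15.2%). The 3 groups also differed in width, with medians of 2500 bp inside and 2252.5 bp outside genes, so the middle share was also read within bins of width. Up to 1000 bp the medians were 82.0% at gene ends, 82.4% inside and 82.2% outside genes. In each of the 7 wider bins the median at gene ends was the highest of the 3, for example 80.4%, 75.2% and 74.0% from 2500 to 3000 bp and 78.8%, 64.2% and 73.9% over 6000 bp. These regions belong to 1 list and are not replicates, so the differences have no test.

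The distance from midpoint to gene end is what the rule limits to 1 kb, so its values are a description of the choice. The median distance was 269.5 bp (quartiles 115 and 487 bp), and 22.0%, 47.5% and 75.9% of midpoints lay within 100, 250 and 500 bp. Just inside the limit were the regions of Ccnyl1 at 998.5 bp, Ankhd1 at 998 bp and Ube2v1 at 997.5 bp. Just outside were those of Nufip2 at 1000.5 bp, Sde2 at 1001 bp and Nlrc5 at 1002.5 bp. Middle shares on the inner side were 75.2%, 82.8% and 33.7%, and on the outer side 96.3%, 83.4% and 32.5%, so both sides held high and low values.

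Where the strand was known, the regions lay at gene starts. The nearest end was the start of transcription for 4371 regions and the end of transcription for 216, with 1047 at genes whose strand was not given. Starts were thus 95.3% of the regions with known strand (94.6% to 95.9%). For comparison, the nearest gene end was a start for 86.5% (84.3% to 88.4%) of single-interval regions at gene ends, 82.6% (75.2% to 88.1%) of regions of 5 or more intervals there, 65.3% of three-interval regions inside genes and 60.6% of those outside. These groups were not tested against each other.

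Oriented by strand, the regions spanned the outermost annotated start, with midpoints shifted downstream of it. Any other annotated start of a gene lies further downstream by definition, and the shift from such starts is not given here. The median midpoint lay 128.5 bp into the gene (quartiles -89 and 367 bp), and 66.1% (64.7% to 67.5%) of midpoints lay downstream. The median middle interval ran from -698 to 901 bp and the median region from -903 to 1180 bp. The start itself fell in the middle interval in 4033 of 4371 regions (92.3%, 91.4% to 93.0%), in the upstream outer interval in 97 and in the downstream outer interval in 74. In 104 regions the whole region lay upstream of the start and in 63 the whole region lay downstream. Coverage by the middle interval peaked at 92.6% of regions 50 bp upstream of the start. The downstream outer interval was slightly wider, with medians of 163 against 144 bp, and was the wider of the pair in 53.3% (51.8% to 54.8%). At the 3742 regions with a single start nearby the shift was 145 bp and this share 53.4%.

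**Figure D1:**
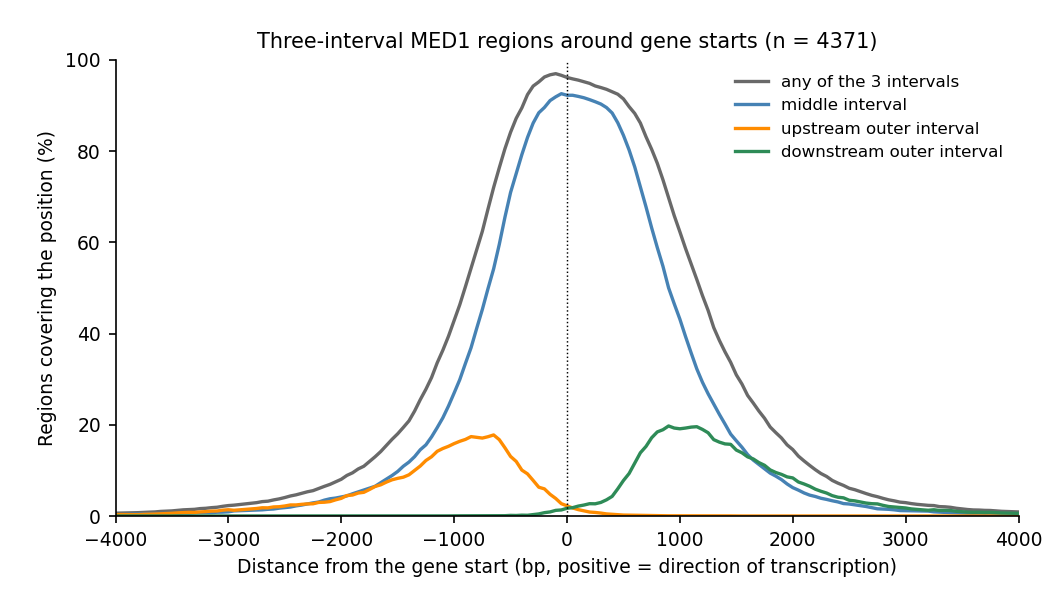
Share of the 4371 regions nearest to a gene start (y axis, %) that cover each position around the start (x axis, bp, positive in the direction of transcription), for any interval, the middle interval and each outer interval. The start is the outermost annotated one. The middle interval covers it in 92.3% of regions, the outer intervals flank it on either side, and the curve of all intervals reaches further downstream than upstream.

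Some regions sat between a pair of genes read in opposite directions. Of the 4487 regions with a known gene start within 1 kb, 408 (9.09%, 8.29% to 9.97%) had a divergent pair of starts, whose gap had a median of 95 bp (45 to 204 bp). Both starts lay inside the middle interval in 387 of the 408 (94.9%). Their midpoints lay a median of 220.5 bp (99 to 402 bp) from the centre between the starts, on either side of it. Width had a median of 2273.5 bp and middle share 82.2%, both near the values of all regions. Over all 5634 regions, 4585 had 1 protein-coding gene within 1 kb, 1029 had 2 and 20 had 3, and 39 were within 1 kb of both ends of 1 gene.

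The 216 regions nearest to an end of transcription were wider and at shorter genes. Their median width was 2604.5 bp and median middle share 77.0% (61.9% to 89.0%), and the nearest gene had a median length of 8437.5 bp against 21955 bp for regions at starts. In 53 of the 216 (24.5%) a RefSeq start of some gene also lay within 1 kb of the midpoint, and for 163 no listed start did. A wide region can still cover a start that lies further from its midpoint. The Coro1a region, for example, covers that gene from end to end (chr7:126699774-126704816). How many of the 163 cover a start was not counted. The closest to the end were Irgq at 0.5 bp, Rps12 at 4 bp, Kank3 at 5.5 bp, and Coro1a and Gm51999 at 11 bp. Some of these were wide: the Coro1a region (chr7:126693746-126705824, 12079 bp, middle share 90.6%) and the Rps12 region (7997 bp, 91.7%) were among them. The Rps12 region also covers a start of Rps12, 2022 bp from its midpoint. The Kank3 region (6206 bp) covers a start of Rps28, 1636.5 bp from its midpoint. Coro1a encodes coronin 1A, an actin-binding protein of leukocytes, and Rps12 a ribosomal protein.

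Promoters of genes with a three-interval region at the start were mostly CpG-rich. RefSeq promoters (250 bases before to 50 after the start) were available for 17273 of 21627 protein-coding genes (79.9%), and 5122 of them belonged to genes with a three-interval region centred within 1 kb of the outermost start. The promoter's own start was that outermost start for 10369 of the 17273 (60.0%). Their median GC content was 60.7% and median CpG observed over expected 0.812. A promoter was called CpG-rich with GC of at least 50% and observed over expected of at least 0.6. This held for 78.0% of the 5122, 69.8% of 989 promoters with only a single-interval region, 29.1% of 11006 with no region midpoint at the start and 46.3% of all. With the 100 bases before the start alone, 78.3% were CpG-rich.

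**Figure D2:**
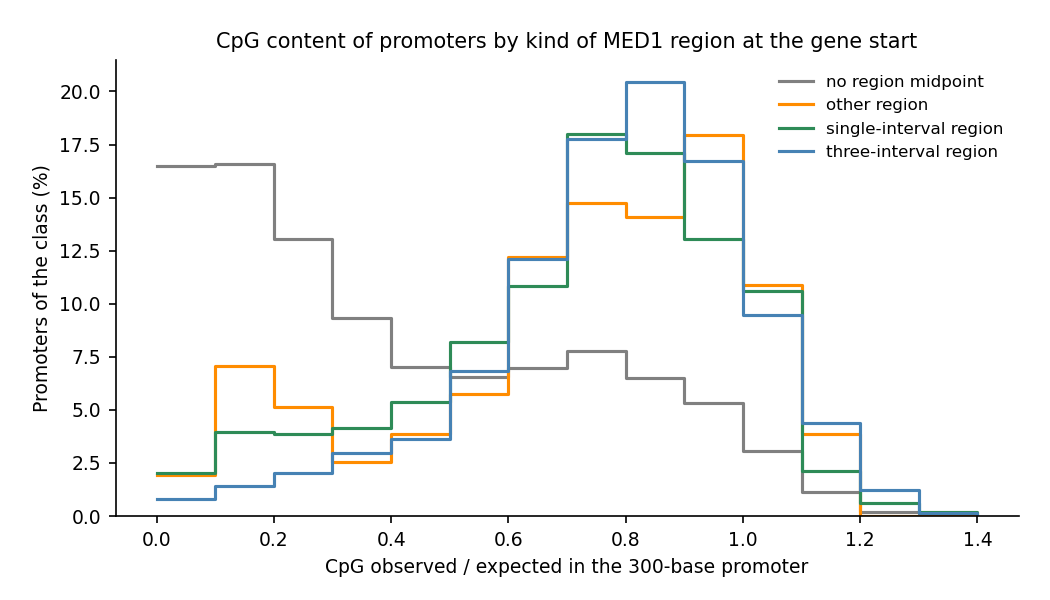
CpG observed over expected (x axis) in 300-base promoters, as the share of promoters of each class (y axis, %), for genes with a three-interval region (n = 5122), only a single-interval region (n = 989), another region (n = 156) or no region midpoint (n = 11006) at the start. Classes with a region peak between 0.7 and 1.0, while promoters without one are most frequent under 0.2.

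The GC box and the E-box were more frequent in promoters with any kind of region at the start. The GC box, bound by SP and KLF factors, was in 66.1% of promoters with a three-interval region and 69.8% of those with only a single-interval region, against 35.6% without a region midpoint and 46.9% of all. E-boxes were in 11.5%, 10.9%, 6.10% and 8.01% of these classes in the same order. CCAAT, read by NF-Y, was nearly level, in 41.0%, 38.8%, 39.0% and 39.6%. In the 100 bases before the start alone it was in 25.5%, 24.5%, 20.1% and 22.0%.

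Other motifs were more frequent with a three-interval region than with a single-interval region, though these classes were not tested against each other. The ETS box, the letters read by GABPA and other ETS factors, was in 25.1% of promoters with a three-interval region (Wilson interval 23.9% to 26.3%) and 15.3% of those with only a single-interval region (13.2% to 17.6%). Without a region midpoint it was in 5.62%, and over all promoters in 12.1%. NRF1 cores were in 7.40% and 4.55% of the classes with a region, 1.79% without one and 3.64% of all. YY1 sites were in 6.31% and 3.13%, 1.78% and 3.23%. The cAMP response element was in 4.31% (3.79% to 4.91%) and 2.73% (1.88% to 3.94%), with overlapping intervals, and in 1.44% and 2.36%.

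TATAAA and the letters of the AP-1, interferon, NF-kB and PU.1 motifs were less frequent or level in promoters with a region. TATAAA was in 5.94% of promoters with a three-interval region, 5.97% with only a single-interval region, 17.7% without a region midpoint and 13.4% of all. On the gene strand between -40 and -15, where the box acts, the shares were 0.742%, 0.809%, 4.04% and 2.87%, and the most common position of TATAAA before the start over all promoters was -29. In the same order, the AP-1 site was in 3.05%, 3.13%, 5.46% and 4.60%, and the interferon response element in 7.38%, 8.80%, 11.0% and 9.81%. The NF-kB site was in 0.918%, 1.01%, 1.24% and 1.12%, and the PU.1 site in 3.07%, 2.83%, 3.24% and 3.17%. GC content differs between these classes, and its part in each motif share was not tested. Promoters at gene starts were also ranked by middle share and divided at its quartiles. The ETS box was in 21.0% of the group with the lowest middle share and 24.7% to 26.5% of the others, and 75.0% to 79.6% were CpG-rich.

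Of all 21627 protein-coding genes, 6532 (30.2%) had a three-interval region centred at an end, and this share is the background for each gene list below. The lists and families were chosen with earlier results of these data known, and each is described by its count alone. Lists of basic cell machinery other than glycolysis lay above the background, each with a Wilson interval wholly above 30.2%. A region was present at 26 of 28 genes of RNA polymerase subunits (92.9%), 33 of 39 proteasome subunits (84.6%), 33 of 39 subunits of respiratory complex I (84.6%), 26 of 31 general transcription factors (83.9%), 20 of 25 small nuclear ribonucleoprotein and LSm genes (80.0%), 28 of 37 tRNA synthetases (75.7%) and 59 of 78 mitochondrial ribosomal proteins (75.6%). Cell cycle and replication genes had 34 of 51 (66.7%), cytochrome c oxidase and ATP synthase 23 of 35 (65.7%), and translation factors 44 of 68 (64.7%). Cytosolic ribosomal proteins had 49 of 81 (60.5%) and glycolysis genes 8 of 20 (40.0%, 21.9% to 61.3%, which holds the background). Many of these regions were narrow. When only regions at or above the median width of three-interval regions counted, 13.7% of all genes had one, the RNA polymerase list 28.6%, complex I 20.5%, general transcription factors 29.0%, mitochondrial ribosomal proteins 24.4%, cytosolic ribosomal proteins 56.8% and glycolysis 30.0%.

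The ribosomal protein regions differed between the compartments in width. Cytosolic ones had a median width of 3658 bp (3076 to 5867 bp) and mitochondrial ones 1901 bp (1596 to 2342 bp), with median middle shares of 83.7% and 81.4%. The widest cytosolic examples by middle interval were at Rpl3 (14023 bp, middle 10231 bp), Rpl38 (9273 bp, 9041 bp), Rpl35 (8107 bp, 7905 bp) and Rps9 (7735 bp, 7690 bp). The mitochondrial counterparts were at Mrpl51 (3177 bp, middle 2997 bp), Mrpl52 (8355 bp, 2803 bp), Mrps34 (3303 bp, 2618 bp) and Mrps21 (3196 bp, 2483 bp). At Mrpl52 the middle interval was 33.5% of the region, while at Rps9 it was 99.4%. Cytosolic ribosomal proteins have processed copies elsewhere in the genome, and how reads from such copies were placed is not given in the sources used here.

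Large families differed from the basic machinery and from each other. Zfp zinc finger genes had a region at 169 of 394 (42.9%) with a median width of 1697 bp, RAB GTPases at 25 of 59 (42.4%) and solute carriers at 103 of 369 (27.9%). Hox genes, which pattern the embryo, had 4 of 39 (10.3%). Clustered histone genes had 9 of 67 (13.4%, median width 7787.5 bp), and a further 46 of the 67 were overlapped by a region without a midpoint at an end, 25 of them by one of 4 or more intervals. Olfactory receptors had 4 of 1106 (0.362%), vomeronasal receptors 1 of 353 and keratins 0 of 101. Zfp36, counted among the Zfp genes by its symbol, encodes tristetraprolin, which destabilises inflammatory messenger RNAs.

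Markers of other cell types were nearly without a three-interval region centred at an end. Neuronal markers had 0 of 30 (upper 95% limit 11.4%), hepatocyte markers 0 of 26 (12.9%) and neutrophil and granulocyte markers 0 of 18 (17.6%). The exceptions were Actn3 among 23 skeletal muscle markers, Cd3d among 22 T cell markers and Blnk among 18 B cell markers. The Actn3 region was centred 989 bp from that gene's end and also within 1 kb of Zdhhc24. Any overlap of a three-interval region with the 1 kb window gave 17.4% for muscle, 16.7% for B cell and 13.6% for T cell markers. Neutrophil and granulocyte, hepatocyte and neuronal markers had 11.1%, 3.85% and 3.33%, against 37.2% of all genes. A midpoint of any kind of region lay at an end of 5 of 22 T cell markers (22.7%), the highest of these lists. The macrophage lineage list had 20 of 50 (40.0%, 27.6% to 53.8%, which holds the background of 30.2%).

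**Figure D3:**
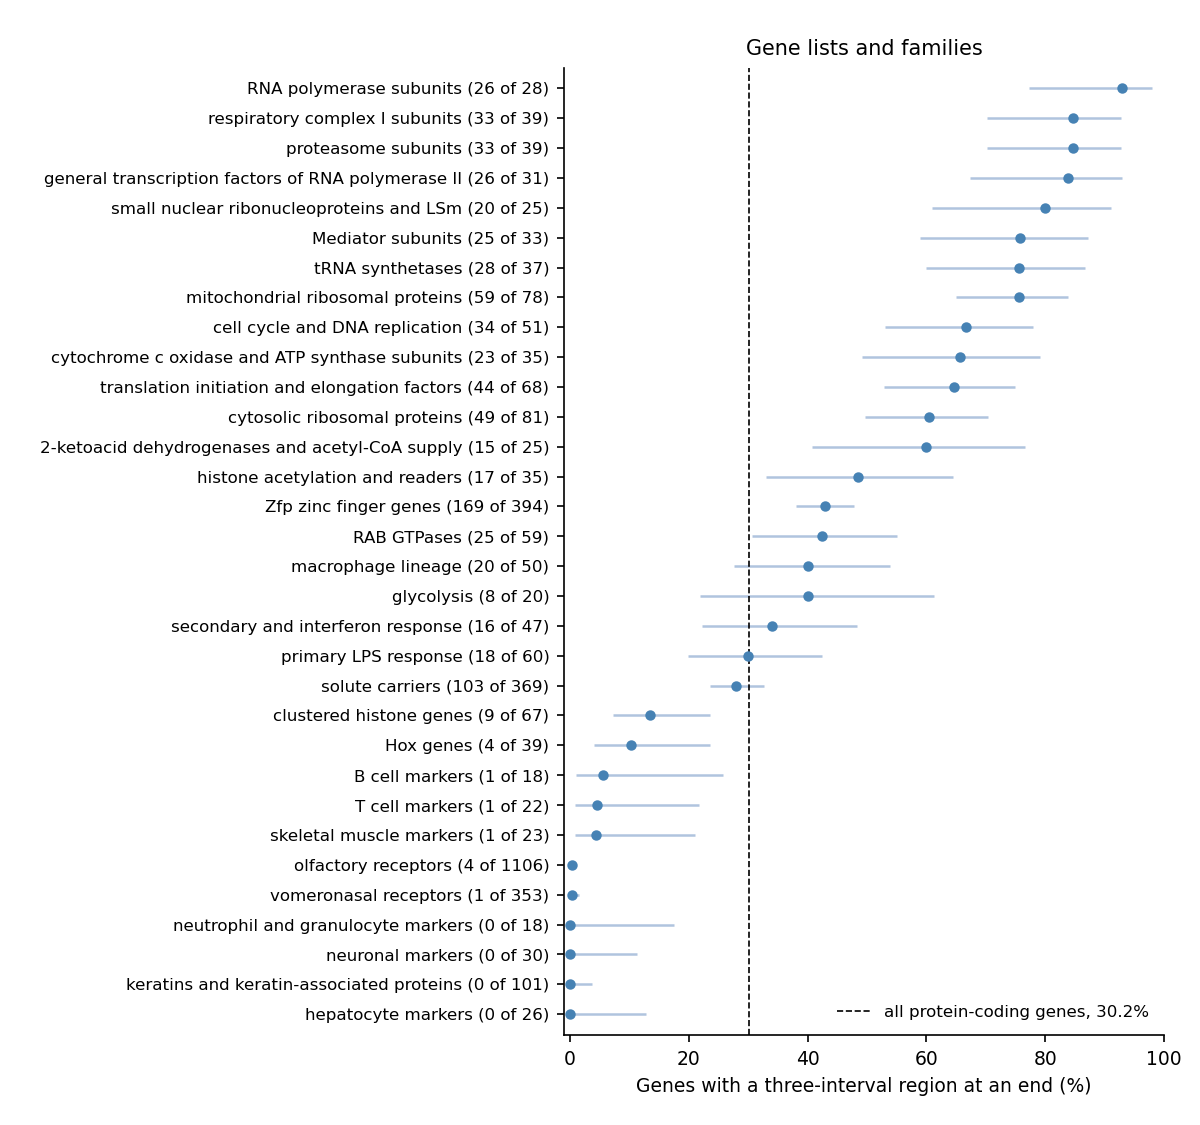
Share of the genes of each list or family with a three-interval region centred within 1 kb of an end (x axis, %, points), with 95% Wilson intervals (bars) and the counts in the labels. The dashed line is the share of all protein-coding genes, 30.2%; lists of basic machinery lie right of it, and markers of other lineages, sensory receptors and keratins lie at 0 or near it.

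The counts for several lists, inducible, lineage and glycolysis genes among them, depended on asking for a midpoint. By midpoint, the primary LPS response list had 18 of 60 (30.0%), and the secondary and interferon response list 16 of 47 (34.0%), both near the background of 30.2%. When any overlap of a three-interval region with the 1 kb window counted, these became 35 of 60 (58.3%) and 26 of 47 (55.3%), macrophage lineage became 37 of 50 (74.0%), glycolysis 17 of 20 (85.0%), clustered histone genes 30 of 67 (44.8%), and all genes 37.2%. With a midpoint within 2.5 kb, glycolysis had 75.0% and all genes 36.9%. In the primary LPS list, 13 genes without a midpoint at an end were overlapped by a region of 4 or more intervals. Tnf, the gene of tumour necrosis factor, lay under a region of 11 intervals and 33316 bp, and Nfkbiz was overlapped by one of 5 intervals among 2 regions, the widest of 29323 bp. Spi1, which encodes the macrophage regulator PU.1, was overlapped by a three-interval region of 14755 bp whose midpoint lay 4.61 kb away. Il6 had a single-interval region and Il12b none in the window. A wide region can cover a gene end without having its midpoint there.

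Regions at genes of the secondary and interferon list had a low middle share. The 16 genes of the secondary and interferon list had 17 regions with a median middle share of 39.5% (quartiles 33.0% and 50.0%, range 15.3% to 63.9%), against 80.8% for all 5634. The highest of the 17, 63.9%, was below the lower quartile of all regions, 69.7%. The middle share was under 50% in 13 of 17, against 6.07% of all. The middle intervals themselves were of ordinary width, with a median of 1657 bp against 1600 bp. The outer intervals were wide, and their sum had a median of 2658 bp (1540 to 4323 bp) against 381 bp (208 to 686 bp). The median region width was 5156 bp. Regions of all genes over 4000 and up to 6000 bp wide had a median middle share of 76.7% (60.5% to 86.8%, n = 339), with 14.5% of them under 50%.

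The lowest values in this list were at effectors of interferon. Isg15, a ubiquitin-like modifier, had intervals of 2812, 1014 and 2788 bp (chr4:156197753-156204366, middle share 15.3%), with the middle one from -760 to 253 bp. Igtp, an immunity-related GTPase, had 749, 473 and 1566 bp (17.0%), and its middle interval from -478 to -6 bp ended just before the start. Gbp7, a guanylate-binding protein, had 2808, 913 and 1515 bp (17.4%), the middle one from -448 to 464 bp. In these 3 genes a middle interval of about 1 kb or less sat on or against the start, between outer intervals that were each wider than it was. Cxcl10, a chemokine, had 4172, 1657 and 813 bp (24.9%) in a region nearest to the end of transcription.

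The signalling and antiviral genes of the list lay between 33.0% and 63.9%. Among the transcription factors of the interferon pathway, Irf7 was at 33.0%, Stat2 at 37.9%, Irf9 at 52.9% and Stat3 at 63.9%. The antiviral enzymes were Isg20, an exonuclease, at 37.9%, Eif2ak2, the RNA-activated kinase PKR, at 39.5%, and the oligoadenylate synthetases Oas2 at 42.3% and Oas3 at 50.0%. Usp18, which removes ISG15 from proteins, had 2 regions at 34.6% and 45.5%. Socs1, an inhibitor of cytokine signalling, was at 48.4% and Ifi35 at 61.7%. Of the 10 regions nearest to a known start, 9 had the start inside the middle interval, Igtp being the exception.

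**Figure D4:**
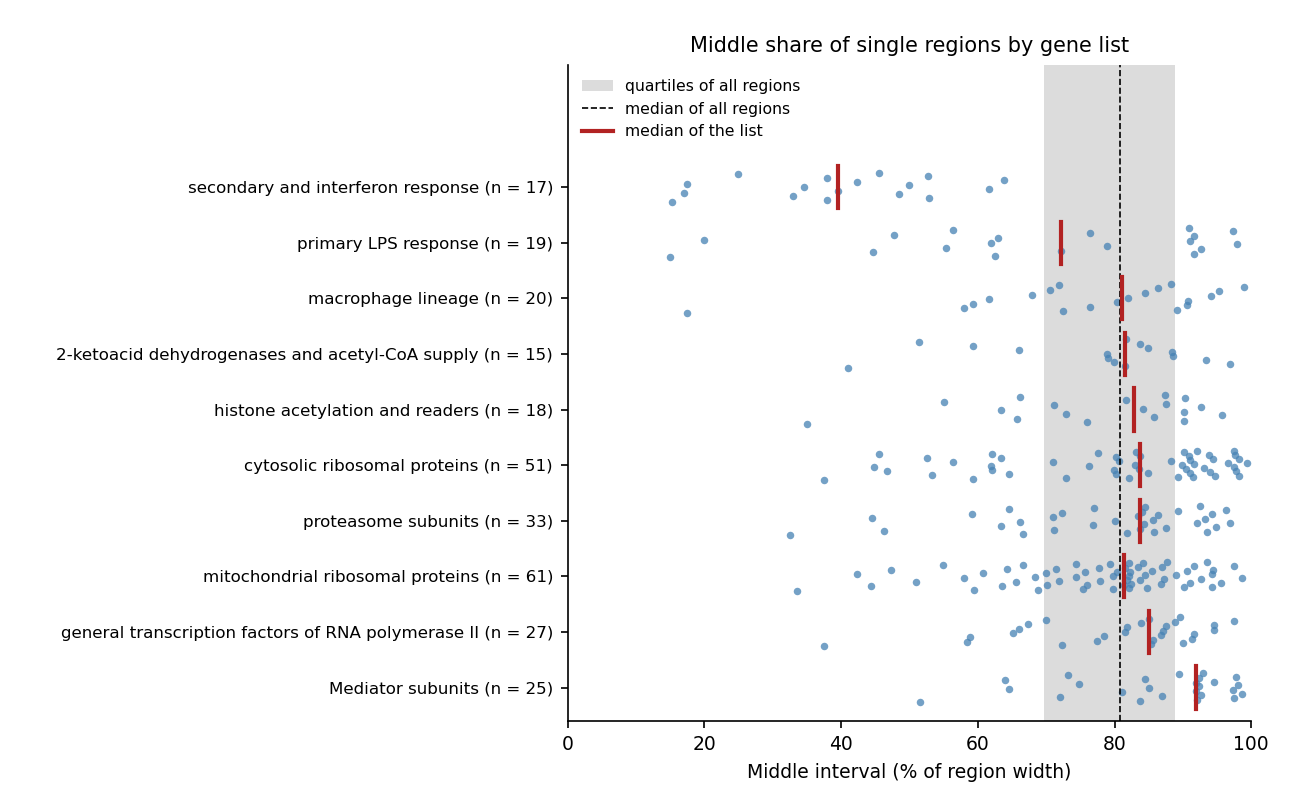
Middle interval as a percentage of region width (x axis) for each region (points) at the genes of 10 lists, with the list median (red bar), and the median (dashed line, 80.8%) and quartiles (grey band, 69.7% to 88.9%) of all 5634 regions. All 17 points of the secondary and interferon list lie left of the grey band, the primary LPS list is spread from 15.0% to 97.8%, and most Mediator genes lie at its right edge or beyond.

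The promoters of the secondary and interferon list also differed from the rest in sequence, with or without a region. Of the list's promoters with a three-interval region at the start, 8 of 11 held the interferon response element and 3 of 11 were CpG-rich. Of all promoters with such a region, these were 7.38% and 78.0%. At list genes with a region at either end, the counts were 9 of 13 and 3 of 13. At list genes without a three-interval region at either end they were 14 of 24 and 3 of 24. These shares were not tested. Over all promoters at starts, the element was in 7.96% of those with a middle share up to its lower quartile and 8.42% of those above its upper quartile.

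The primary LPS response genes, induced directly through Toll-like receptor 4, had no common shape. Their 19 regions had a median middle share of 72.2% (quartiles 55.9% and 91.3%, range 15.0% to 97.8%) and a median width of 3854 bp (2795 to 6927 bp). At one extreme were Zfp36 (chr7:28371462-28387238, intervals of 289, 15347 and 141 bp, 97.3%), the start region of the adhesion molecule gene Icam1 (97.8%), the NF-kB cofactor gene Bcl3 (92.7%) and the AP-1 subunit gene Jun (91.6%). At the other were Marcksl1 (2577, 661 and 1174 bp, 15.0%), Phlda1 (536, 1257 and 4502 bp, 20.0%), the NF-kB subunit gene Relb (44.7%) and the kinase gene Ripk2 (47.7%). Between them lay Dusp2 (56.4%), the inhibitor gene Nfkbia (61.9%, region of 12193 bp) and Ier3 (78.9%). Icam1 had a region at each end, at 97.8% and 55.4%.

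**Figure D5:**
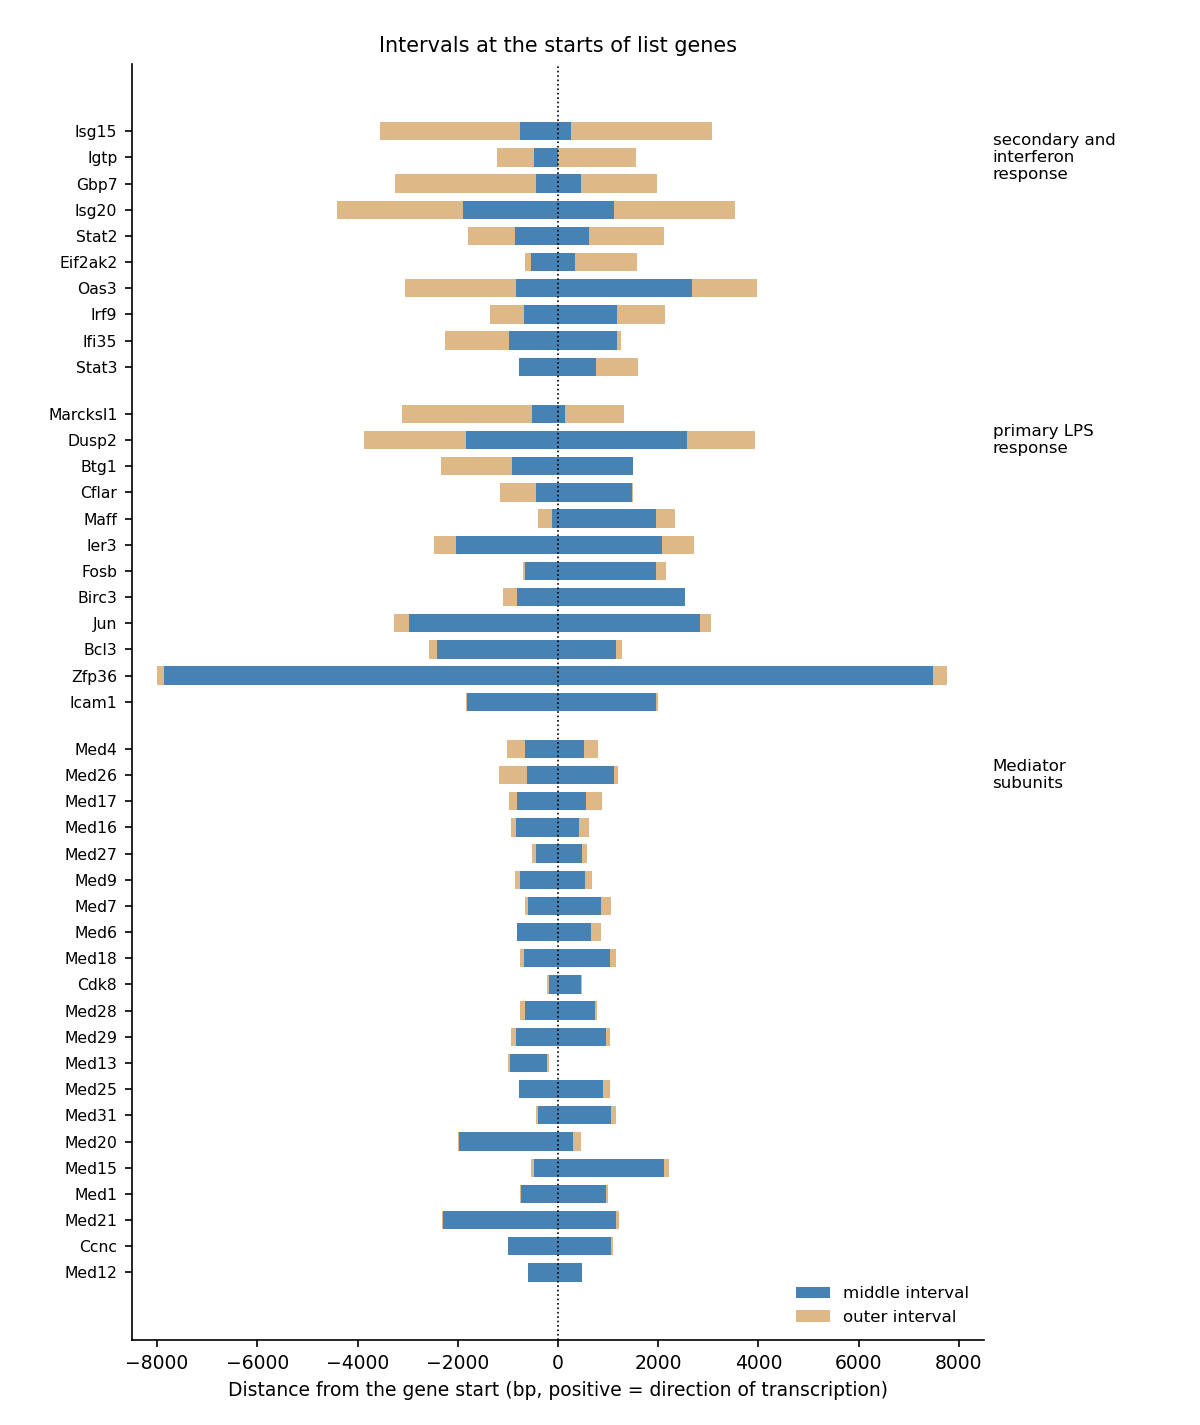
Extent of the 3 intervals around the gene start (x axis, bp, positive in the direction of transcription) for all list regions nearest to a known start in the secondary and interferon (10), primary LPS (12) and Mediator (21) lists, ordered by middle share. Outer intervals (tan) are wide at most interferon genes and narrow at most Mediator genes; Zfp36 has the widest middle interval, from -7869 to 7477 bp.

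Macrophage lineage genes had the middle share of all regions but more width. Their 20 regions had a median of 81.1% (69.9% to 89.5%) and a median width of 3234 bp (2588 to 5501 bp). The widest middle intervals were at Coro1a (10944 bp), Mpeg1 (9962 of 10987 bp), a pore-forming protein, Ncf1 (6605 of 9361 bp), a NADPH oxidase subunit, and Cd68 (6054 of 6117 bp, 99.0%), a lysosomal glycoprotein. Irf8, a lineage transcription factor, had 2356 of 2934 bp (80.3%). Lyz1 was the exception, with intervals of 27, 444 and 2070 bp in the direction of transcription (17.5%) and its middle interval from -1184 to -741 bp, so that the start lay in the downstream outer interval. Lyz1 and Lyz2 are near-identical lysozyme genes side by side, and reads shared between them could have been placed at either; the Lyz2 region, nearest to its end of transcription, had 58.0%.

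The genes of Mediator itself had narrow regions with a high median middle share, though single regions ranged widely. A region lay at 25 of 33 subunit genes (75.8%), with a median width of 1748 bp (1527 to 1961 bp) and a median middle share of 91.9% (81.2% to 92.9%, range 51.5% to 98.6%). Med1, the gene of the precipitated protein, had intervals of 28, 1702 and 18 bp (97.4%) in plus-strand order. Med12 of the kinase module had 98.6% of 1083 bp, Ccnc 98.0% of 2096 bp, Cdk8 91.9% of 702 bp and Cdk19 73.2% of 3963 bp. The lowest share was at Med8 (51.5%). The Med13 region, of 803 bp, lay wholly upstream of its start, from -988 to -186 bp. Of the subunits without a region, Med10 and Med12l had nothing in the window and Med11 was overlapped by a region of 5 intervals.

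The 2-ketoacid dehydrogenases with their regulators, and the genes of acetyl-CoA supply, which the study's title concerns, were read as a single list. It had 15 of 25 genes with a region (60.0%), a median width of 2436 bp and a median middle share of 81.5% (72.4% to 86.7%). Subunits of the pyruvate dehydrogenase complex were Pdha1 (83.7%), Pdhb (66.0%), Dlat (88.4%), Dld (93.3%) and Pdhx (78.9%). The 2-oxoglutarate dehydrogenase subunits were Ogdh (79.0%) and Dlst (41.0%, the lowest of the list), and the branched-chain subunits Bckdha (59.3%) and Dbt (81.5%). Citrate synthase, Cs, had 96.9% of 3448 bp. Of the kinases that inhibit pyruvate dehydrogenase, Pdk3 had a region, Pdk1 had a single-interval region, and Pdk2 and Pdk4 had none in the window. Histone acetylation genes had 17 of 35 (48.6%), a median width of 1935.5 bp and a middle share of 82.9%. The acetyltransferase genes Ep300 (4709 bp, 75.9%), Kat7 (2637 bp, 85.8%) and Hat1 (2204 bp, 90.2%) had regions, and the deacetylase gene Hdac5 had the lowest share, 35.0%.

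Over all regions, the extremes of width and shape were a mixed group. The widest were at Zfp36 (15777 bp), Ndufs8 (15742 bp, nearest to its end of transcription), Zfhx4 (15679 bp), Rpl3 (14023 bp) and Nbn (13597 bp, middle share 20.1%). The narrowest were at Pabpc4 (353 bp), Cd86 (378 bp), Apba1 (380 bp), Dtnb (447 bp) and Desi2 (456 bp). The largest middle shares were at Ptprs (99.6%), Armc7 (99.5%), Crk, Acer3 and Rps9 (99.4% each). The smallest were at Lilr4b (9.84%), a leukocyte immunoglobulin-like receptor, Ccrl2 (11.2%), an atypical chemokine receptor, Marcksl1 (15.0%), Isg15 (15.3%) and Slfn3 (15.6%), a Schlafen gene. The Lilr4b middle interval lay from 1496 to 1969 bp and that of Ccrl2 from -2150 to -1344 bp, so neither held the start, while those of Marcksl1, Isg15 and Slfn3 did.

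Regions with a small middle share had a narrower middle interval and wider flanks than the others, which largely restates how they were divided. Among regions at a start, the 247 with a share under 50% had a median middle interval of 925 bp and outer intervals summing to 1558 bp, against 1641 and 354 bp in the other 4124. Their middle interval had median edges of -529 and 501 bp, and it held the start in 170 of 247 (68.8%, 62.8% to 74.3%), against 93.7% (92.9% to 94.4%). The downstream outer interval was the wider in 64.0% (57.8% to 69.7%), against 52.7% (51.1% to 54.2%). A narrower interval covers any given position less often, and how much of the difference in start coverage this makes was not tested.

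The regions were spread more thinly along chromosomes than other three-interval regions. The next MED1 region was a median of 13531.5 bp away, against 6450 bp for those inside genes and 5323 bp for those outside. Another region lay within 12.5 kb for 48.0% (46.7% to 49.3%), against 66.1% and 71.1%. Autosomes had 21.2 (chromosome 7) to 30.8 (chromosome 15) regions per 100 protein-coding genes, and chromosome X had 13.4, with the lowest median width, 1623 bp. Median middle share varied little, from 78.7% on chromosome 15 to 83.4% on chromosome 18. A start of a gene that is not protein-coding lay within 1 kb of 495 regions (8.79%).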

How the data were processed

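The authors deposited 1 list of 53764 intervals for the series, with chromosome, start and end on mm10. The deposited score column is 0 throughout and was not used as a measurement. Bowtie, SAMtools, MACS2 2.2.6 and mm10 are named per the submitters' processing notes; how peaks were called, against which control, and on which libraries is not given in the sources used here. Each library's depth is unknown, so no precision per library could be computed and untreated and LPS-treated cells were not compared.

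Intervals whose start equalled the previous end were joined. Gene positions came from RefSeq on GRCm38.p6, the assembly that mm10 names, for 21627 protein-coding genes on chromosomes 1 to 19 and X. Strand was taken from the RefSeq promoter table, which had 17273 of them (79.9%). A gene's start or end is its outermost annotated position on that side. Of 3427 names in the 32 lists and families, 3407 were found. Coordinates are 1-based. Joining, distances, orientation and motif search were tested on simulated data. Versions were Python 3.11.15, pandas 2.3.3, numpy 2.4.6, matplotlib 3.10.9 and scipy 1.17.1.

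The members and lists were chosen with earlier results of these data known. Genes were named by rule: the 5 widest and 5 narrowest regions, the 5 largest and 5 smallest middle shares, the 3 on each side of the 1 kb limit, up to 4 genes per list with the widest middle interval, up to 3 genes without a region in each of the first 6 lists, and the 5 nearest to an end of transcription. Other genes of these lists were named after their values were seen. Some genes of the lists are not reported here. Alternatives were windows of 500 bp and 2.5 kb, the midpoint of the middle interval, joining within 10 bp, regions at or above the median width, any overlap, and promoters of 100 bases. Every RefSeq start in place of the outer one, and the alternatives of the middle shares by list, were chosen after seeing the data.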

Additional observations from a re-analysis of the deposited data

How the results depend on the processing

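The list carries neither heights nor libraries, so these values describe 1 set of calls and not the spread between cultures, and depth and calling settings set which intervals exist. With a window of 500 bp, starts were 96.3% of regions with known strand and 22.6% of genes had a region. With 2.5 kb these were 92.2% and 36.9%, and the downstream outer interval was the wider in 54.9%. With the midpoint of the middle interval, 31.3% of genes had a region and the median middle share was 80.4%. With regions at or above the median width of three-interval regions only, 2467 regions were left, 13.7% of genes had one, starts were 93.5%, the downstream outer interval was the wider in 56.3%, the middle share was 79.5%, and that of the Mediator genes 92.9%. With every RefSeq start, chosen after seeing the data, 32.5% of genes had a region and the downstream outer interval was the wider in 54.9%. With any overlap, 37.2% of genes had a region. Joining within 10 bp gave the same 5634 regions.

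The median middle share of the secondary and interferon list was 37.9% to 42.4% over these settings, and that of the primary LPS list 62.9% to 76.5%. That of the Mediator list was 88.2% (window of 500 bp) to 92.9% (regions at or above the median width, which 15.2% of its genes had). Lists that passed to the other side of the share of all genes were the primary LPS list (4 settings besides any overlap), solute carriers, the secondary and interferon list, macrophage lineage, Zfp genes and clustered histone genes. For each of these 6, at least 1 setting put the value outside the list's own Wilson interval.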

Other observations

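Most regions with a low middle share were not at genes of the secondary and interferon list, which held 13 of the 342 regions under 50%. Outside the lists, and named after their values were seen, low shares were at Stk38l (16.0% of 3350 bp), a kinase gene, Marveld1 (17.3% of 5942 bp), Zfand6 (18.2% of 2637 bp), Tspan14 (19.7% of 2987 bp), a tetraspanin gene, Hal (20.4% of 2580 bp), the histidine ammonia-lyase gene, and Adgre5 (20.9% of 5697 bp), a leukocyte adhesion receptor gene. At Adgre5 the last interval was 4295 bp wide and the first 209 bp. At Lrp1, a lipoprotein receptor gene, the first was 5147 bp, the middle 1976 bp and the last 853 bp (24.8%).

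The widest middle intervals, also named after their values were seen, joined LPS-response, housekeeping and other genes. After Zfp36 they lay at Zfhx4 (14158 bp), Ndufs8 (13916 bp), Grn (12487 bp), the progranulin gene, H3c11 (11139 bp), a clustered histone gene, Coro1a (10944 bp), Pfn1 (10899 bp), the gene of the actin-binding protein profilin, and Cited2 (10777 bp), which encodes a transcriptional coregulator. In these regions the middle interval was 88.4% (Ndufs8) to 98.6% (Grn) of the width.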
